A study of Bos taurus with 81 samples.

Results

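In the bovine morula, 3085 stretches of the 29 autosomes lay under peaks of both H3K4me3 and H3K27me3. A stretch entered this set where at least 500 bp in a row were covered in both H3K4me3 libraries and in both H3K27me3 libraries of the morula. The 3085 doubly marked stretches, called members below, summed to 4.06 Mb, which is 0.163% of the placed autosomal sequence. They came from 23421 stretches of H3K4me3 (38.7 Mb) and 16713 stretches of H3K27me3 (131 Mb) that were found in both morula libraries of the mark. The members were thus chosen by their H3K4me3 and H3K27me3 coverage in the 4 morula libraries, and the presence of both marks there is not a finding.

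The study profiled oocytes and in vitro produced cattle embryos by CUT&Tag, in which an antibody brings a transposase to a histone mark, while ATAC-seq used the transposase alone to cut open chromatin. The groups were germinal vesicle oocytes taken before maturation (GV), embryos at the 2-cell (2C, 32 h after insemination), 4-cell (4C, 44 h) and 8-cell stage (8C, 56 h), 8-cell embryos grown with 50 μg/ml α-amanitin, an inhibitor of RNA polymerase II (8A, 56 h), morulae (MO, 122 h), whole blastocysts (BL, 172 h), and the blastocyst parts, inner cell mass (ICM) and outer trophectoderm (TE). All embryos were made from slaughterhouse oocytes by fertilisation with frozen semen, and the 8A embryos differ from 8C by the inhibitor. The ICM was obtained by immunosurgery and the TE by cutting with a micro scalpel, and each library pooled about 500 oocytes or 1000 to 1500 blastomeres. H3K4me3, H3K27me3, H3K27ac and H3K9me3 had 2 libraries in each of the 9 groups, and ATAC-seq had 3 libraries each in BL, ICM and TE, which makes 81 libraries. The labels do not say that replicates came from separate cultures, so the p-values measure the spread between these libraries, which may be technical.

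H3K4me3 is laid down at the promoters of active or poised genes, and H3K27me3, the product of Polycomb repressive complex 2, accompanies genes held silent. Chromatin that carries both at once is called bivalent and is known best from developmental regulator genes in embryonic stem cells, where one of the marks is usually lost when a cell commits to a fate. H3K27ac accompanies active promoters and enhancers, and H3K9me3 accompanies constitutive heterochromatin and silenced repeats. Each library pooled many cells, so both marks on one chromosome and each mark in other cells cannot be told apart.

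The values are covered lengths under the peaks that the authors called on each library. The 81 lists held 4706380 autosomal peaks. Sequencing depth is unknown, since the lists give no read totals. The summed length of a list ranged from 37.7 to 176 Mb for H3K4me3, from 110 to 281 Mb for H3K27me3, from 43.4 to 142 Mb for H3K27ac, from 96.6 to 188 Mb for H3K9me3 and from 80.8 to 117 Mb for ATAC. A stretch was counted as marked in a group where at least 50% of its length was covered in every library of that group, as unmarked where this held in no library, and as unsettled otherwise. Beside each share of the members stands, as the background, the share of the 2488032 autosomal bins of 1 kb that met the same criterion.

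The members were short. Their length ran from 500 bp to 11.8 kb with a median of 1.05 kb and quartiles of 0.75 and 1.65 kb. There were 1328 members under 1 kb, 1230 of 1 to 2 kb, 518 of 2 to 5 kb and 9 longer than that. The H3K4me3 stretch lay wholly inside the H3K27me3 stretch at 2335 members (75.7%), so that most were islands of H3K4me3 within a longer H3K27me3 domain. The members lay in 2375 H3K27me3 stretches, 14.2% of all such stretches, with a median length of 6 kb against 5 kb for all H3K27me3 stretches. In the morula lists the H3K27me3 peaks that held members had a median score percentile of 72.6 and 74.4 in the 2 libraries, and the H3K4me3 peaks 52.1 and 53.4, where the score is the authors' own value per peak and 100 is the highest of a list. The members' summed length was 1.99 times the 2.04 Mb that the product of the covered lengths of the marks would give. Chromosomes 19 and 25 held the most members per Mb (2.29 and 2.03), and chromosomes 1 and 28 the fewest (0.656 and 0.936).

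H3K27me3 was present on most members in the oocyte, was nearly absent during cleavage and was present on most of them again after the morula. In GV, 67.2% and 58.4% of the members' length was under an H3K27me3 peak in the 2 libraries. The values were 4.74% and 5.20% in 2C, 6.91% and 5.80% in 4C, and 9.94% and 9.46% in 8C. Every cleavage library lay far below both GV libraries. The difference between the 4 stages passed an exact permutation test over the 8 libraries (adjusted p = 0.0190 over 4 marks; the smallest unadjusted p this test allows, 0.00952). It also passed when the lists of a mark were trimmed to one covered length (exact permutation test, adjusted p = 0.0190).

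In GV, 55.8% of the members were marked by H3K27me3 in both libraries (background 7.28%). This share was 4.47% in 2C (background 3.41%), 5.58% in 4C (background 4.56%) and 8.07% in 8C (background 4.31%). The members thus stood close to the rest of the autosomes in 2C and 4C and above it in 8C. Of the 3085 members, 1439 (46.6%) were marked in GV and unmarked in 2C, 4C and 8C (background 4.70%), and 1211 of these were again marked in BL, ICM and TE (39.3% of all members; background 2.03%). Another 940 members (30.5%) were unmarked in all of GV, 2C, 4C and 8C (background 81.2%), so on these the mark was first seen in the morula. A further 97 members (3.14%) were marked by H3K27me3 in all of GV, 2C, 4C and 8C (background 0.732%).

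H3K4me3 covered most of the members' length from the oocyte on. It covered 81.4% and 83.9% of the length in GV, 87.7% and 87.5% in 2C, 87.3% and 89.7% in 4C, and 91.9% and 96.5% in 8C. The 8C libraries were the highest and the GV libraries the lowest of the 4 stages. The difference between stages passed the exact permutation test over the 8 libraries (adjusted p = 0.0381), but not in 5 of the 8 fits that left out a library (GV replicate 1, 2C replicates 1 and 2, 4C replicate 2 or 8C replicate 2), where the exact permutation test gave adjusted p = 0.0508 to 0.0571. The share of members marked by H3K4me3 was 85.3% in GV (background 4.79%), 90.3% in 2C (background 3.44%), 91.9% in 4C (background 3.04%) and 94.2% in 8C (background 2.54%). All of these 4 groups were marked at 2429 members (78.7%; background 1.40%).

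**Figure D1:**
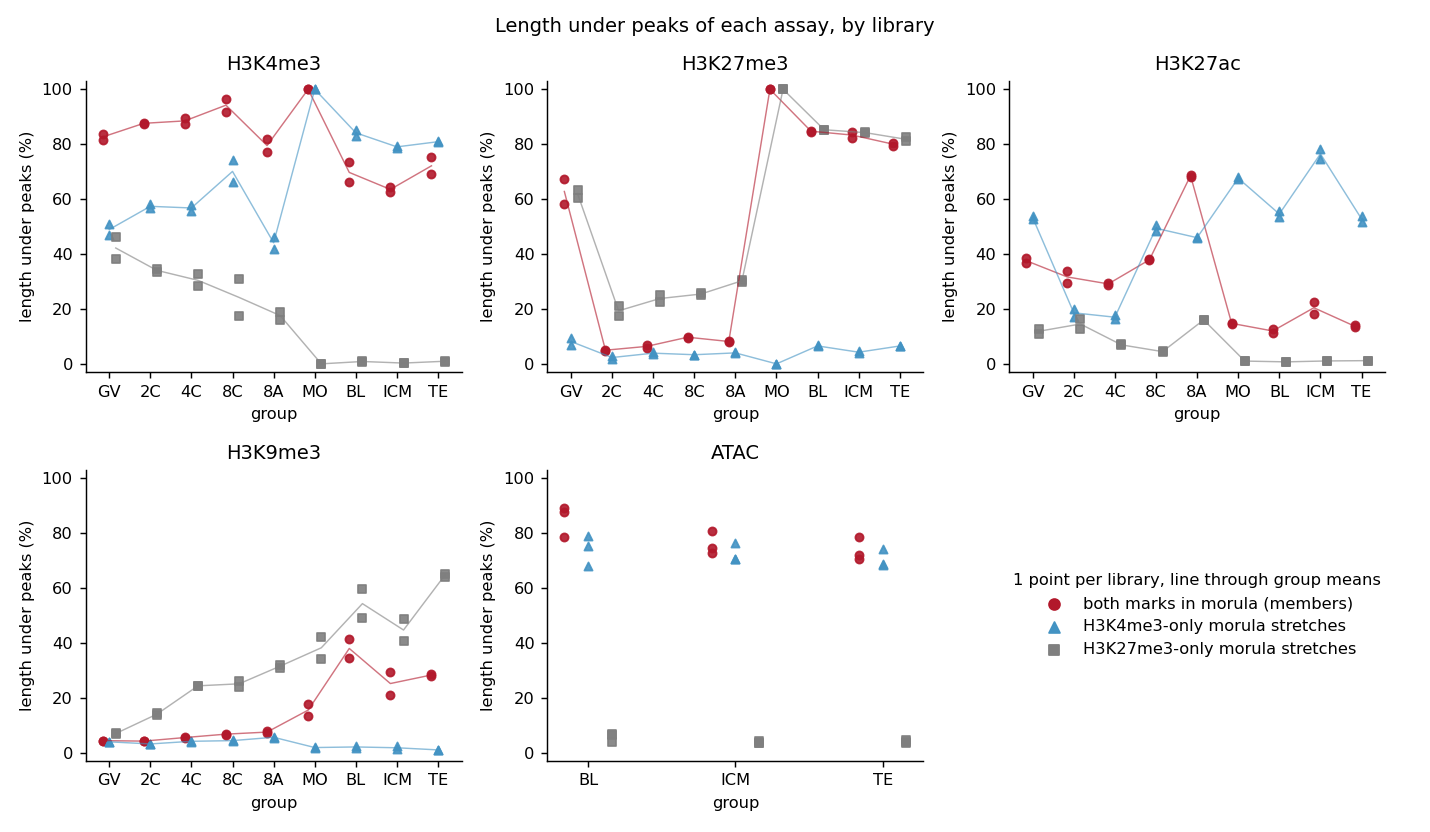
Percent of the summed length under peaks (vertical axis) by group (horizontal axis), one panel per assay and one point per library, for the 3085 members, for morula stretches with H3K4me3 only and for morula stretches with H3K27me3 only. The lines join group means, and the morula values of H3K4me3 and H3K27me3 are fixed by how the stretches were chosen; members are high in H3K4me3 before the morula, drop to 4.74% to 9.94% in H3K27me3 from 2C to 8C, and stand at 79.4% or more in H3K27me3 in BL, ICM and TE.

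The state of the pair of marks followed from these values. In GV, 1523 members (49.4%) carried both marks (background 2.01%) and 825 carried H3K4me3 alone (26.7%; background 2.37%). In 2C, 115 members carried both marks (3.73%; background 0.291%) and 2634 carried H3K4me3 alone (85.4%; background 2.98%). The counts in 4C were 133 with both marks (4.31%; background 0.356%) and 2642 with H3K4me3 alone (85.6%; background 2.51%). In 8C, 211 members carried both marks (6.84%; background 0.272%) and 2602 carried H3K4me3 alone (84.3%; background 2.16%). Thus the pair seen in the morula was already present on 49.4% of the members in the oocyte, and H3K4me3 alone was the state of 84.3% to 85.6% of them in the untreated cleavage groups.

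**Figure D2:**
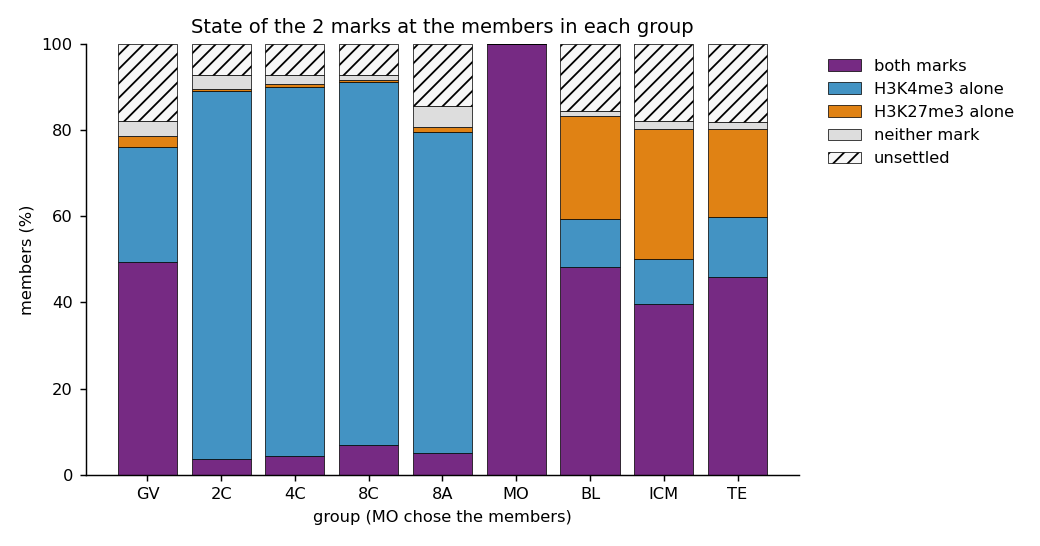
Percent of the 3085 members (vertical axis) in each state of H3K4me3 and H3K27me3, stacked by group (horizontal axis); hatched parts are members on which the libraries of a group differed. Both marks stand at 100% in MO because they chose the members; H3K4me3 alone is the main state in 2C, 4C, 8C and 8A, and both marks the main state in GV, BL, ICM and TE.

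After the morula both marks covered much of the members, and H3K27me3 covered more of them than H3K4me3. H3K4me3 covered 66.1% and 73.4% of the length in the 2 BL libraries, 62.5% and 64.6% in ICM, and 75.2% and 69.0% in TE. H3K27me3 covered 84.9% and 84.5% in BL, 84.3% and 82.4% in ICM, and 79.4% and 80.6% in TE. In each group both H3K4me3 libraries lay below both H3K27me3 libraries. The mean difference, H3K4me3 minus H3K27me3, was -14.2 percentage points (exact permutation test within groups, two-sided p = 0.00926, the smallest the 216 arrangements allow; 0.0123 adjusted over 3 joint tests). With lists trimmed to one covered length per mark, which left 1479 members, it was 0.57 points (exact permutation test, p = 0.713), and over the 1288 members with no H3K9me3 in any of the 18 lists of that mark it was 7.20 points in the other direction (exact permutation test, p = 0.0185).

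H3K4me3 marked 63.2% of the members in BL (background 1.73%), 53.9% in ICM (background 1.37%) and 64.2% in TE (background 1.64%). H3K27me3 marked 83.2% in BL (background 9.66%), 81.5% in ICM (background 8.58%) and 78.2% in TE (background 9.62%). Both marks were seen on 1490 members in BL (48.3%; background 0.176%), on 1220 in ICM (39.5%; background 0.119%) and on 1413 in TE (45.8%; background 0.166%). H3K27me3 alone was seen on 737 members in BL (23.9%; background 9.42%), on 931 in ICM (30.2%; background 8.41%) and on 625 in TE (20.3%; background 9.37%). H3K4me3 alone was seen on 341 in BL (11.1%; background 1.51%), on 326 in ICM (10.6%; background 1.22%) and on 436 in TE (14.1%; background 1.45%). Neither mark was seen on 34 in BL (1.10%; background 85.6%), on 57 in ICM (1.85%; background 87.2%) and on 55 in TE (1.78%; background 85.8%). Where a single mark was left, it was H3K27me3 more often than H3K4me3 in all 3 groups, as in the background. A test of these counts was not run. The late H3K27me3 lists were longer (246 to 281 Mb) than those of H3K4me3 (37.7 to 50.4 Mb). With trimmed lists H3K4me3 marked 71.0% of the members in ICM and H3K27me3 62.3%. In TE trimmed H3K27me3 was at 58.8%, and H3K4me3 stayed within 4.93 points, the SD of the 2 libraries, of 64.2%. H3K4me3 was thus ahead in TE too. In BL trimmed H3K27me3 was at 61.4%, and H3K4me3 stayed within 5.75 points of 63.2%, which does not settle the order. Over the 1288 members with no H3K9me3 in any list, H3K4me3 was ahead in BL (79.3% against 74.8%) and TE (80.7% against 68.0%). In ICM it was not (68.9% against 72.0%).

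The same state in all of BL, ICM and TE was found for 1493 members (48.4%). Both marks stayed on 840 members in all 3 groups (27.2%; background 0.0724%), H3K27me3 alone on 433 (14.04%; background 6.31%), H3K4me3 alone on 204 (6.61%; background 1.01%) and neither on 16 (0.519%; background 82.5%).

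Between ICM and TE most members that were settled in both had the same state. The state was settled in both for 2104 members, and 1635 of these (77.7%) agreed: 901 carried both marks in ICM and TE (29.2% of all members; background 0.0798%), 485 carried H3K27me3 alone in both (15.7%; background 6.55%) and 228 carried H3K4me3 alone in both (7.39%; background 1.04%). The most frequent change was H3K27me3 alone in ICM and both marks in TE, at 202 members (6.55%; background 0.0259%). Next came both marks in ICM and H3K4me3 alone in TE, at 99 members (3.21%; background 0.0145%). Full exchange was rare, with H3K27me3 alone in ICM and H3K4me3 alone in TE at 12 members (0.389%; background 0.0150%) and the reverse at 7 (0.227%; background 0.00800%).

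**Figure D3:**
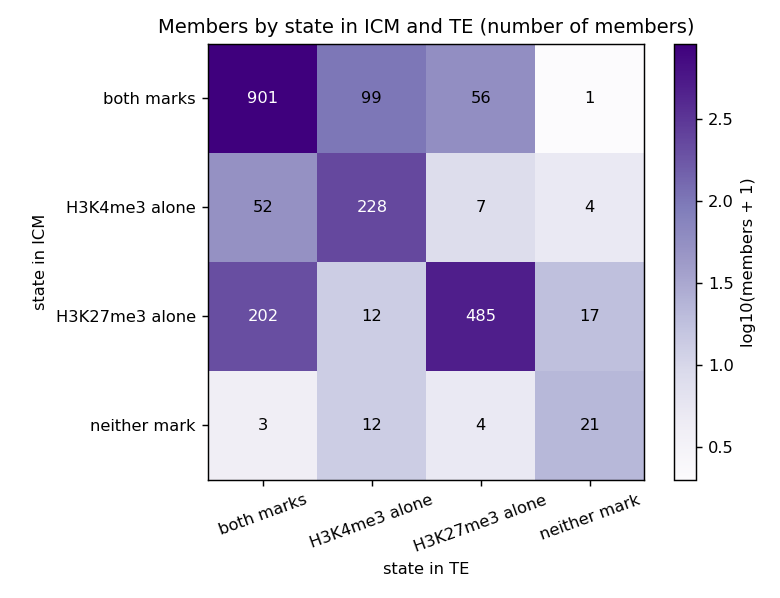
Number of members in each combination of state in ICM (rows) and state in TE (columns), over the 2104 members settled in both; the colour is log10 of the count plus 1. The diagonal holds 1635 members, and the largest cell off it, 202, is H3K27me3 alone in ICM with both marks in TE.

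Counted by mark, H3K4me3 was present in TE and absent in ICM at 260 members (8.43%; background 0.287%), against 72 with the reverse (2.33%; background 0.0910%). H3K27me3 was present in ICM and absent in TE at 151 members (4.89%; background 1.12%), against 78 with the reverse (2.53%; background 1.88%). On the autosomes as a whole the order for H3K4me3 was the same. For H3K27me3 it was the other way, with more bins marked in TE and unmarked in ICM. The H3K4me3 lists were shorter in ICM (37.7 and 38.5 Mb) than in TE (46.7 and 44.9 Mb). With trimmed lists, which left 1479 members, H3K4me3 marked 71.0% of them in ICM. In TE the trimmed share stayed within 4.93 points, the SD of the 2 libraries, of the untrimmed 64.2%. On trimmed lists the share marked by H3K4me3 was thus not higher in TE than in ICM. Neither the counts by mark nor the changes of state between ICM and TE were taken on trimmed lists. Libraries of 1 tissue resembled each other more than libraries of the other tissue. The Jaccard index, the bases covered in both of 2 libraries over the bases covered in either, averaged within the members' length 0.811 within and 0.723 between ICM and TE for H3K4me3, 0.940 and 0.856 for H3K27me3, 0.646 and 0.403 for H3K27ac, 0.650 and 0.471 for H3K9me3, and 0.808 and 0.767 for ATAC. The summed excess of within over between was 0.635 (exact permutation test over 5 assays, one-sided p = 0.00123, the smallest possible; 0.0037 adjusted over 3 joint tests). The gap was largest for H3K27ac and smallest for ATAC.

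The oocyte state went along with the later one. Members marked by H3K27me3 in GV (1722) had 90.5%, 88.6% and 87.1% of their length under H3K27me3 in BL, ICM and TE, while members unmarked in GV (1030) had 73.2%, 73.3% and 65.2%. For H3K4me3 the order was reversed, with 65.6%, 58.0% and 68.7% for the members marked in GV and 77.2%, 72.9% and 78.4% for those unmarked. The 2 subsets hardly differed in median length (1.10 and 1.05 kb). These and the following splits of the members are descriptions of the covered length (means of the libraries of a group), and no test was run on them.

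Longer members held H3K4me3 more fully. In ICM, H3K4me3 covered 39.9% of the length of members under 1 kb, 63.5% of those of 1 to 2 kb and 79.5% of those of 2 kb or more. In TE the values were 52.4%, 73.7% and 83.5%. H3K27me3 showed no such order, with 83.3%, 84.9% and 81.4% in ICM. Position within the H3K27me3 stretch also went along with both marks. Members nested inside an H3K27me3 stretch had 58.5% H3K4me3 and 88.9% H3K27me3 in ICM, and the 750 members that were not nested had 78.4% and 66.8%.

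The members that ended with different marks had differed earlier. Those with H3K4me3 alone in BL, ICM and TE (204) had had 39.6% of their length under H3K27me3 in GV, those with both marks (840) 64.6% and those with H3K27me3 alone (433) 76.7%. All 3 classes were low in 2C, with 4.98%, 4.03% and 10.6%. In 8C, H3K4me3 covered 87.0%, 96.5% and 96.0%, so the class that ended with H3K4me3 alone was the lowest. Their median lengths were 1.27, 1.5 and 0.8 kb.

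The other assays also set these classes apart. H3K27ac covered 69.8% of the length in ICM and 58.5% in TE where H3K4me3 alone was left, 15.6% and 7.25% where both marks were left, and 4.03% and 1.45% where H3K27me3 alone was left. H3K9me3 had the opposite order, with 4.54%, 22.0% and 66.4% in TE. Open chromatin by ATAC-seq covered 83.7%, 81.2% and 43.9% of the length in TE. In the class with H3K27me3 alone, H3K9me3 was thus on most of the length in TE, and ATAC peaks on less of it than in the other classes.

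**Figure D4:**
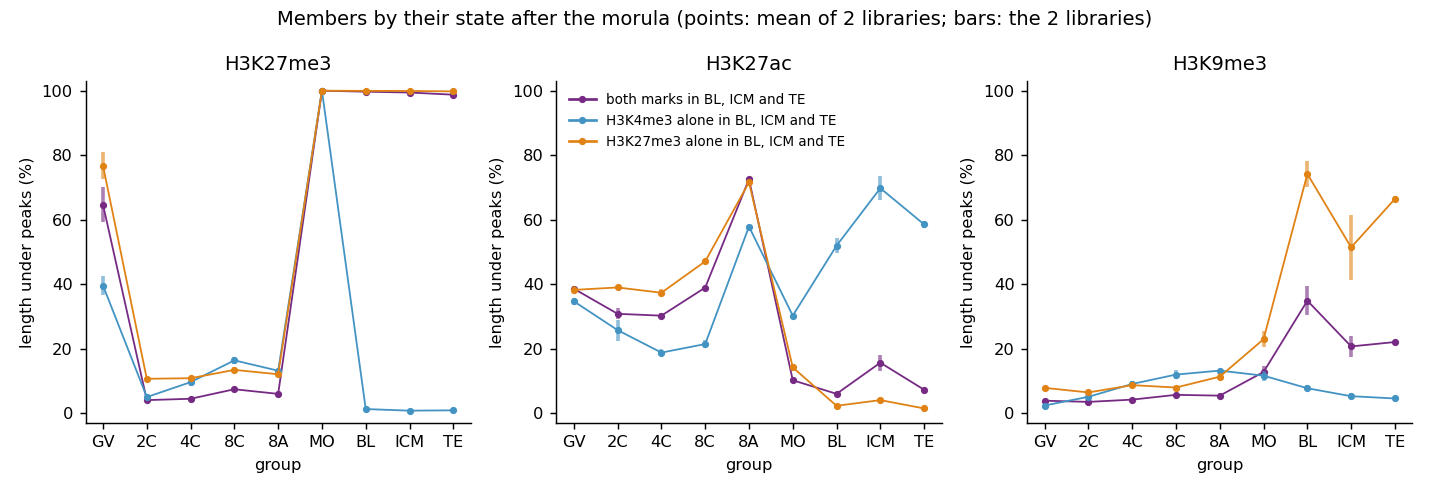
Percent of the length under H3K27me3, H3K27ac and H3K9me3 peaks (vertical axes) by group for members with both marks (840), H3K4me3 alone (204) or H3K27me3 alone (433) in all of BL, ICM and TE; points are means of 2 libraries and bars span them. The late H3K27me3 values are set by the classes; in GV the classes stand at 64.6%, 39.6% and 76.7%, and in TE H3K9me3 stands at 22.0%, 4.54% and 66.4%.

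H3K27ac, which did not enter the choice, was low on the members in the morula and after it. It covered 36.7% and 38.5% of their length in GV, 29.4% and 33.9% in 2C, 29.6% and 28.6% in 4C, and 38.0% and 37.8% in 8C. In MO it covered 14.5% and 15.0%, in BL 11.2% and 12.8%, in ICM 22.7% and 18.2%, and in TE 13.3% and 14.04%. All 8 libraries from MO on lay below all 8 libraries of GV to 8C. Among GV, 2C, 4C and 8C the stage difference missed the threshold (exact permutation test over 8 libraries, adjusted p = 0.0571). Over all 7 untreated groups but MO it passed (permutation test over 14 libraries, adjusted p = 0.00014), as it did for H3K4me3 (0.00064), H3K27me3 (8.0e-05) and H3K9me3 (0.00096) in the same test.

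The share of members marked by H3K27ac was 32.1% in GV (background 4.08%), 20.6% in 2C (background 1.2%), 17.8% in 4C (background 0.597%), 30.1% in 8C (background 2.56%), 11.9% in MO (background 3.54%), 9.08% in BL (background 1.71%), 15.7% in ICM (background 3.21%) and 9.72% in TE (background 1.89%). The 367 members marked by H3K27ac in MO kept more of it later, with 51.9% of their length in BL, 62.5% in ICM and 47.7% in TE, against 5.09%, 13.1% and 7.41% for the 2502 members unmarked in MO. They also had less H3K27me3 in TE, 56.0% against 84.6%.

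H3K9me3 appeared on the members from the morula on. It covered 4.33% and 4.38% of their length in GV, 4.04% and 4.29% in 2C, 5.61% and 5.32% in 4C, and 6.94% and 6.47% in 8C. In MO it covered 13.2% and 17.7%, in BL 34.4% and 41.4%, in ICM 21.0% and 29.3%, and in TE 28.8% and 27.7%. Each library from MO on was above each earlier one, 8A included. The early stages differed as well, by at most a few points (exact permutation test over 8 libraries, adjusted p = 0.0190), but not with lists trimmed to one covered length (exact permutation test, adjusted p = 0.133).

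The share of members marked by H3K9me3 was 3.89% in GV (background 5.82%), 3.53% in 2C (background 3.75%), 4.80% in 4C (background 5.39%) and 5.80% in 8C (background 5.42%), which is near the background throughout. It was 13.1% in MO (background 3.99%), 34.1% in BL (background 3.45%), 20.1% in ICM (background 3.11%) and 26.4% in TE (background 4.89%). In all of BL, ICM and TE, 442 members were marked (14.3%; background 1.72%). In BL, H3K9me3 lay on 450 members that had H3K27me3 without H3K4me3 (14.6%; background 2.52%) and on 389 that had both other marks as well (12.6%; background 0.0303%). In at least 1 of the 18 H3K9me3 lists the mark covered 50% or more of 1797 members (58.2%; background 22.1%), and in none of 1288.

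Open chromatin was found on most members. ATAC peaks covered 78.5%, 89.1% and 87.5% of their length in the 3 BL libraries, 74.6%, 80.6% and 72.8% in ICM, and 71.8%, 78.6% and 70.5% in TE. The libraries of ICM and TE overlapped. The share of members marked in all 3 libraries was 83.9% in BL (background 2.35%), 73.0% in ICM (background 2.21%) and 68.1% in TE (background 2.31%), and 1862 members were marked in all 9 libraries (60.4%; background 1.37%). Thus the members, with most of their length under H3K27me3, also gave ATAC peaks in the same tissues. This did not hold for morula stretches with H3K27me3 only, where mean ATAC coverage was 5.62% in BL, 3.69% in ICM and 3.97% in TE.

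With α-amanitin, the members had more H3K27ac and less H3K4me3 than in untreated 8-cell embryos. H3K27ac covered 68.2% and 68.9% of their length in 8A against 38.0% and 37.8% in 8C. H3K4me3 covered 81.9% and 77.1% against 91.9% and 96.5%, H3K27me3 8.11% and 8.18% against 9.94% and 9.46%, and H3K9me3 6.95% and 7.95% against 6.94% and 6.47%. The groups did not overlap in any of the 4 marks, although the nearest H3K9me3 libraries were almost equal (6.95% and 6.94%). With 2 libraries against 2 the smallest two-sided p of an exact permutation test of a single mark is 0.333. Over the 4 marks together, libraries of 1 group resembled each other more than those of the other (summed excess of the Jaccard index 0.487; exact permutation test, one-sided p = 0.0123, the smallest possible, and the same after adjustment over 3 joint tests).

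H3K27ac marked 66.0% of the members in 8A (background 2.65%). It was present in 8A and absent in 8C at 882 members (28.6%; background 1.23%), and the reverse was seen at 44 (1.43%; background 1.14%). H3K4me3 marked 81.6% in 8A (background 1.54%) and was present in 8C and absent in 8A at 117 members (3.79%; background 0.627%), with the reverse at 0. H3K27me3 marked 7.13% in 8A (background 4.70%) and H3K9me3 6.39% (background 5.89%), so the absence of H3K27me3 on most members at this stage was also seen in 8A. Both marks were on 154 members in 8A (4.99%; background 0.297%) and H3K4me3 alone on 2298 (74.5%; background 1.17%). The H3K27ac lists summed to 101 and 97.7 Mb in 8A and to 90.5 and 89.7 Mb in 8C. Those of H3K4me3 summed to 60.4 and 52.2 Mb in 8A and to 68.6 and 112 Mb in 8C. On morula stretches with H3K4me3 only, mean H3K4me3 coverage was 44.1% in 8A and 70.1% in 8C, so the lower H3K4me3 was not particular to the members. Mean H3K27ac coverage of those stretches was 45.9% in 8A and 49.4% in 8C. On morula stretches with H3K27me3 only, it was 16.0% in 8A and 4.455% in 8C. Higher H3K27ac in 8A was thus not particular to the members either.

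To see where the members differed from morula stretches with a single mark, the same shares were taken over 19501 stretches with H3K4me3 only (32.9 Mb, median 1.45 kb) and 18385 stretches with H3K27me3 only (125 Mb, median 4.40 kb). Each library gave one difference, members minus comparison stretches, and the differences were tested by an exact sign-flip permutation test with adjustment over 9 tests. H3K4me3 before the morula was higher on the members than on the H3K4me3-only stretches in 8 of 8 libraries, by 29.9 percentage points (SD 3.98; exact permutation test, adjusted p = 0.0234). After the morula it was lower in 6 of 6 libraries, by 12.9 points on average (difference -12.9, SD 4.11; exact permutation test, adjusted p = 0.0352). The members were shorter than these stretches (median 1.05 against 1.45 kb), and longer members held more H3K4me3 after the morula. No test matched the lengths. Without the members that had H3K9me3 in any list, the late difference was -0.56 points (exact permutation test, adjusted p = 0.656).

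H3K27me3 before the morula was lower on the members than on the H3K27me3-only stretches in 7 of 8 libraries (mean difference -11.7 points, SD 7.98; exact permutation test, adjusted p = 0.0352). This call was lost in 6 of the 8 fits that left out an early library, those without either library of 2C, 4C or 8C (exact permutation test, adjusted p = 0.0527). In GV the difference was 0.75 points on average and the 2 libraries fell on either side of 0, while in 2C, 4C and 8C it ran from -18.1 to -12.8 points. With comparison stretches no longer than the longest member it was -5.19 points over the 8 libraries (exact permutation test, adjusted p = 0.185). After the morula the difference was -1.05 points (SD 0.739; 6 of 6 libraries; exact permutation test, adjusted p = 0.0352), and it turned to 5.58 points with that length limit (exact permutation test, adjusted p = 0.0402), so neither sign can be taken from it.

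For H3K27ac pooled over GV to 8C no difference passed the test (mean difference from the H3K4me3-only stretches -0.49 points, SD 14.1; 4 of 8 libraries higher; exact permutation test, adjusted p = 0.844). That mean joins opposite values: the members were lower in GV (-15.7 points) and 8C (-11.5), and higher in 2C (13.1) and 4C (12.1). After the morula H3K27ac was lower on the members in 6 of 6 libraries, by 45.9 points (difference -45.9, SD 8.03; exact permutation test, adjusted p = 0.0352), with means of 15.4% and 61.3%. H3K9me3 was higher than on the H3K4me3-only stretches by 1.3 points before the morula (8 of 8 libraries; exact permutation test, adjusted p = 0.0234), a call that was lost when H3K4me3 replicate 1 of MO did not enter the choice of stretches (0.85 points; exact permutation test, adjusted p = 0.0703). It was higher by 28.9 points after it (6 of 6 libraries, SD 6.49; exact permutation test, adjusted p = 0.0352). On the H3K27me3-only stretches, which were longer, H3K9me3 covered more than on the members in 18 of 18 libraries, with means of 38.2% against 15.5% in MO, 54.2% against 37.9% in BL, 44.6% against 25.1% in ICM and 64.5% against 28.3% in TE; no test was made of this. ATAC was higher on the members than on the H3K4me3-only stretches by 5.98 points of length (9 of 9 libraries, SD 4.07; exact permutation test, adjusted p = 0.0234). Counting each stretch once, the difference was 2.45 points (exact permutation test, adjusted p = 0.196). The share of stretches marked in all 3 libraries was higher on the members in BL (83.9% against 76.0%). It was lower on them in ICM (73.0% against 75.95%) and in TE (68.1% against 71.4%).

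The marks around the members' centres had different widths. H3K4me3 in MO fell from 100% of the members at the centre to 8.17% and 8.48% at 5 kb on either side, a height set by the choice. In GV it was 85.3% at the centre and still 26.99% and 25.7% at 5 kb, so the oocyte had more H3K4me3 in the flanks than the morula. The H3K4me3 lists were also longer in GV (141 and 176 Mb) than in MO (43.4 and 48.1 Mb), and the flanks were not compared on trimmed lists. H3K27me3 in TE fell more slowly, from 80.7% to 55.4% and 55.0% at 5 kb. In 2C the H3K27me3 profile had a shallow dip, with 5.24% at the centre and 9.06% and 9.22% at 10 kb on either side. H3K9me3 in BL rose from 22.2% and 21.6% at 5 kb to 40.5% at the centre, and H3K27ac in 8A from 20.8% and 20.0% to 70.0%.

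**Figure D5:**
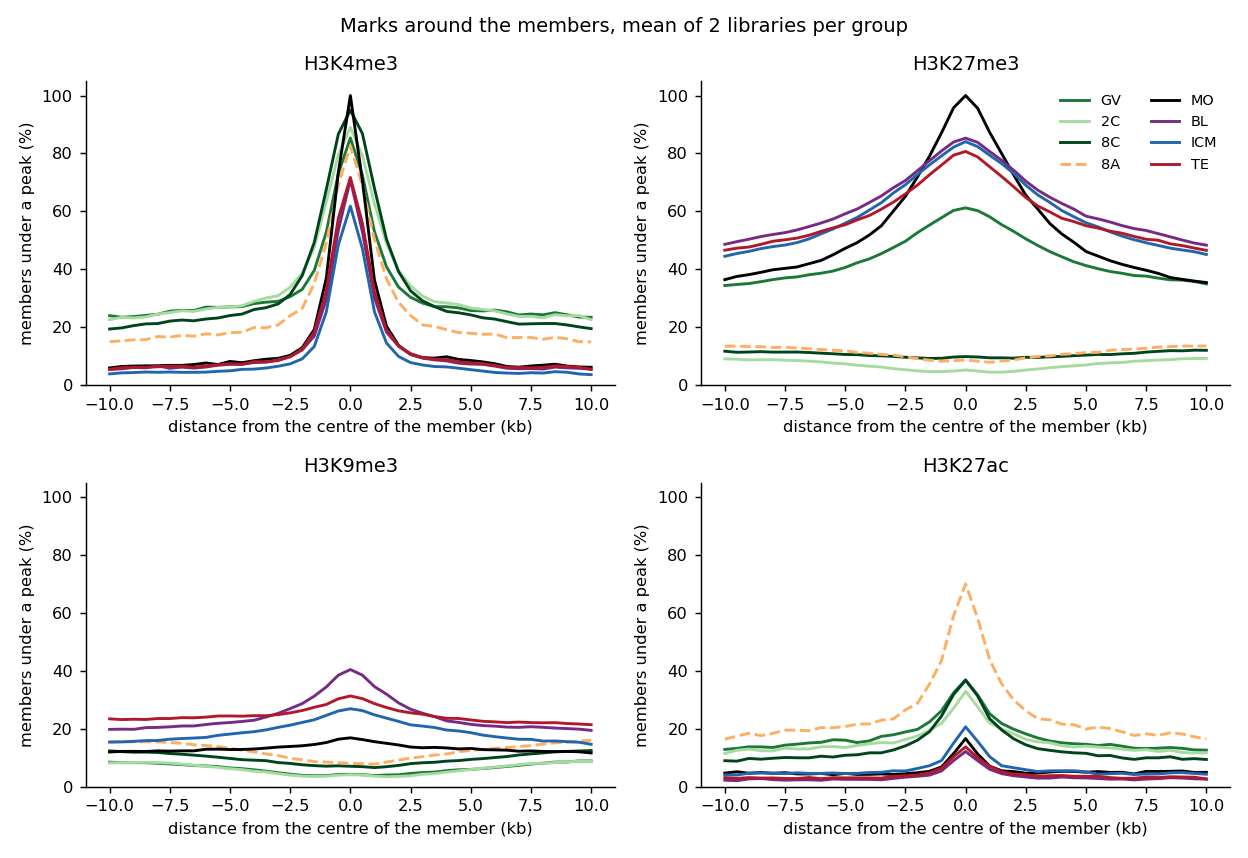
Percent of the 3085 members under a peak (vertical axis) at distances up to 10 kb from the member's centre (horizontal axis) for 4 marks; lines are means of 2 libraries per group, 4C is not drawn, and the dashed line is the α-amanitin group. H3K4me3 peaks are narrow from MO on and have higher flanks in GV, 2C and 8C; H3K27me3 is broad in GV, MO, BL, ICM and TE and flat in 2C and 8C.

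Some members lay close together, while most had no neighbour near. The median gap between neighbours on a chromosome was 175 kb, and 1806 members had none within 10 kb. Of the 3056 gaps 26.1% were under 10 kb, and 613 members lay in 148 runs of 3 or more members with such gaps. The 5 runs with the most members, picked after their values were seen, were on chromosome 4 (68841151 to 68903050, 18 members), chromosome 19 (37850551 to 37914200, 15), chromosome 7 (52438401 to 52502200, 14), chromosome 2 (20795351 to 20846000, 13) and chromosome 3 (21084651 to 21131300, 12), in coordinates of the ARS-UCD1.2 build. No gene annotation of this build was used here, so genes at these places are not named.

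The run on chromosome 4 carried both marks on 18 of 18 members in GV and H3K4me3 alone on 18 of 18 in 2C. Later both marks were on 7 members in BL, 5 in ICM and 11 in TE, H3K27me3 alone was on 3, 9 and 2, and the rest were unsettled. The run on chromosome 2 was similar, with both marks on 12 of 13 members in GV and H3K27me3 alone on 8 in ICM and 6 in TE. H3K9me3 covered 59.7% of the length of the chromosome 4 run in BL and 6.78% in TE, and 70.0% and 6.75% of the chromosome 2 run. The run on chromosome 19 differed between the tissues, with H3K27me3 alone on 9 of 15 members in ICM and on 0 in TE. The run on chromosome 7 had no member with both marks in GV, where H3K27me3 covered 14.6% of its length, and both marks on 12 of 14 members in BL.

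Single members are given next with their values. Coordinates are 1-based on ARS-UCD1.2, and the members were picked as the longest of their class, so they need not stand for it. The longest of all, on chromosome 16 (818001 to 829800, 11.8 kb), was marked in all 81 lists, H3K9me3 included. So were the members on chromosome 27 (6219201 to 6226350, 7.15 kb) and chromosome 2 (121566451 to 121572550, 6.10 kb). In all, 7 members were marked in all 81 lists (0.227%; background 0.00117%) and 59 had H3K9me3 in all 18 of its lists (1.91%; background 0.141%). How reads that align to several places were treated is not given in the sources used here, and whether the peaks of these members reflect the marks was not tested. Of the 16 members with both marks in every untreated group (0.519%, with a background of 0.00153% counted without MO), the chromosome 16 member was the longest. H3K9me3 marked 11 of these 16 in all 18 of its lists.

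The member on chromosome 3 (21310951 to 21318000, 7.05 kb), also among the 5 longest, had both marks in GV and H3K4me3 alone in the cleavage groups. H3K27me3 covered 100% of it in both GV libraries, 0% in 2C, 4C, 8C and 8A, and 100% in every BL, ICM and TE library. H3K4me3 covered 90.1% and 97.2% in GV and 87.2% and 88.7% in ICM, and lay between 92.9% and 100% in 2C, 4C and 8C. H3K9me3 was at 0% in all 18 lists. Both marks thus remained here in BL, ICM and TE.

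On chromosome 12 (35403401 to 35409250, 5.85 kb) H3K4me3 alone was left. H3K27me3 covered 100% and 96.6% in GV, 0% from 2C to 8C, 100% in both MO libraries and 0% in BL, ICM and TE, while H3K4me3 was at 92.3% or more in the 6 late libraries. The member on chromosome 25 (2620501 to 2630000, 9.50 kb) also carried H3K4me3 alone in BL and TE, and its H3K27me3 in ICM was 55.8% and 9.47%, so the 2 libraries differed. Both of these long members thus had H3K27me3 in the oocyte and the morula with none in the cleavage groups between.

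On chromosome 15 (74415551 to 74419100, 3.55 kb) H3K27me3 alone was left. H3K27me3 was at 100% in BL, ICM and TE, and H3K4me3 at 43.7% and 49.3% in BL, 28.2% and 0% in ICM, and 36.6% and 42.3% in TE. Its H3K4me3 thus lay below the 50% limit without being at 0 in BL and TE. H3K9me3 covered 100% in both BL and both TE libraries and 0% and 100% in the ICM libraries.

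A pair of members went opposite ways in the 2 tissues. On chromosome 11 (104212101 to 104214400, 2.30 kb) ICM had H3K4me3 alone, with 100% H3K4me3, 0% H3K27me3, 100% H3K27ac and 100% ATAC in every library. In TE the same stretch had 41.3% and 26.1% H3K4me3, 87.0% and 69.6% H3K27me3, 23.9% and 15.2% H3K27ac and 15.2%, 17.4% and 19.6% ATAC. On chromosome 7 (106954851 to 106957000, 2.15 kb) TE had 100% H3K4me3, 0% H3K27me3 and 0% H3K9me3 in both libraries, and ICM 0% H3K4me3, 100% H3K27me3 and 100% H3K9me3. In BL, which holds both tissues, each of the pair carried both marks.

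The member on chromosome 7 at 109986401 to 109989000 (2.60 kb) was marked by H3K4me3 and H3K27me3 in MO and in no other group. H3K9me3 covered 100% of it in MO, BL, ICM and TE and 0% in the groups before, and H3K27ac 100% in both MO libraries. It was the longest of the 10 members with neither mark in GV, 2C, 4C and 8C (0.324%; background 75.7%), and one of the 16 with neither in BL, ICM and TE. With the lowest-scoring 25% of each list removed it was no longer a member.

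The length limit of 500 bp did not fall at a break in the data. There were 119 stretches of 450 bp just outside it and 102 of 500 bp just inside. The stretches of 450 bp had 73.7% of their length under H3K4me3 in GV, 40.6% in ICM and 50.7% in TE, against 77.9%, 42.9% and 50.7% for those of 500 bp. For H3K27me3 the values were 65.03% in GV and 88.2% in ICM against 59.3% and 78.9%. No test was made of these.

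The same criterion applied to the other groups gave 39905 stretches in GV, 5233 in 2C, 6642 in 4C, 4673 in 8C, 4942 in 8A, 3060 in BL, 2071 in ICM and 3124 in TE. Those in GV touched 51.0% of the members, but 4.80% of the GV stretches touched a member, so most doubly marked stretches of the oocyte were not doubly marked in the morula. Of the stretches in ICM 64.6% touched a member and of those in TE 50.6%, and 42.7% and 49.7% of the members were touched. In 2C the shares were 2.31% of its stretches and 3.76% of the members. The doubly marked stretches of the morula were thus shared far more with the later groups than with the cleavage groups.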

How the data were processed

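Peak lists of 81 libraries were analysed: CUT&Tag for 4 histone marks in 9 groups with 2 libraries each, and ATAC-seq in 3 groups with 3 libraries each. Per the submitters' processing notes, the genome build is ARS-UCD1.2 and the software named is BWA 0.7.9a, SAMtools 1.9, Picard 2.26.10, SICER, cutadapt 1.8.3 and Trim Galore 0.4.0. The deposited lists are named for epic2. How duplicate or multiply aligned reads were treated, which cutoff was used and whether a control entered is not given in the sources used here. Each peak has a whole-number score, deposited by the authors, whose meaning is not stated; it was used only to rank or trim peaks within a list. Depth is unknown. Peak edges lay on a 50 bp grid for ATAC, H3K4me3 and H3K27ac and on a 200 bp grid for H3K27me3 and H3K9me3, so the edges of members follow the finer grid.

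Groups came from the library titles. Members and comparison stretches were found by interval arithmetic on the 29 autosomes (Python 3.11.15, NumPy 2.4.6, pandas 2.3.3), and the covered length of each member was taken in each list. H3K4me3-only stretches touched no morula H3K27me3 peak, and H3K27me3-only stretches were what remained after morula H3K4me3 peaks were cut out. Exact permutation tests over libraries were used where groups were small, and 100000 resamples for 14 libraries; p-values were adjusted by Benjamini-Hochberg over 4 marks, 9 comparisons or 3 joint tests, with a threshold of 0.05. The scripts were tested on simulated data. The numbers of replicates did not pair the libraries across groups. Regions named by position were the 5 longest members, the longest of each late state, of each exchange between ICM and TE, of both marks in every untreated group and of neither mark before the morula, and the 2 chromosomes with the most and the fewest members per Mb. The members, lists and rules were chosen with earlier results of these data known. Alternatives tried were other length limits and marked shares, trimmed or joined lists, the X chromosome, length-limited comparison stretches, each library left out, and 2 added after seeing the data. No sequence is shown, as no genome of this build was used here.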

Additional observations from a re-analysis of the deposited data

Results flagged for a closer look

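The difference in H3K4me3 between members and H3K4me3-only stretches took opposite signs in time: it was above 0 in all 8 libraries of GV, 2C, 4C and 8C and below 0 in all 6 libraries of BL, ICM and TE, and the means differed by 42.8 percentage points, a difference that was not itself tested. For H3K27ac the sign also turned between groups: both libraries of GV were below 0 and both of 2C above it (difference of means -28.7 points), both of 4C were above and both of 8C below (23.6 points), and both of 8A were above while both of 8C were below (34.1 points). None of these 3 differences was tested. Chance alone gives opposite signs in some pairs of groups of 2 libraries. No group had enough libraries for a check of single libraries against the others.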

How the results depend on the processing

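The coverage over all stages but MO, the separation of ICM from TE and that of 8A from 8C passed their tests under every alternative run. The number of members was 1757 with a minimum length of 1000 bp and 1479 with lists trimmed to one covered length. A pair of alternatives was added after seeing the data. Leaving out members with H3K9me3 in any list left 1288, and it turned H3K4me3 minus H3K27me3 after the morula to 7.20 points, H3K9me3 against H3K4me3-only stretches to -3.78 before and -1.41 points after the morula (as the choice fixes), and late H3K4me3 against those stretches to -0.56. Counting each stretch once gave, before the morula, 34.1 points for H3K4me3, -5.61 for H3K27me3 and 0.12 for H3K9me3. After the morula it gave -9.33 for H3K4me3, 5.53 for H3K27me3, -47.5 for H3K27ac, 30.7 for H3K9me3 and 2.45 for ATAC. None passed the threshold (exact permutation test, adjusted p = 0.05625 for early H3K4me3 and each of the 4 late marks). With 6 late libraries the smallest unadjusted p is 0.03125, so a late call also needs low p-values in other tests of the 9. The late differences of H3K27ac and H3K9me3 were at least as large as by length (-45.9 and 28.9 points).

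Trimmed lists turned H3K4me3 minus H3K27me3 to 0.57 points. The late H3K27me3 difference from H3K27me3-only stretches did not hold: it was 0.19 points with trimmed lists, 5.58 with length-limited comparison stretches (the early one was -5.19), -0.87 with H3K4me3 peaks joined and -0.77 with X. The adjusted p of the early stage difference of H3K27ac was 0.0476 at 1000 bp, 0.0286 without the lowest-scoring 25%, and 0.0381 with trimmed lists, without members with H3K9me3 or by stretch; that of H3K9me3 was 0.133 with trimmed lists, and that of H3K4me3 0.0508 with peaks joined. With the replicate block, in which labels move only within a replicate number, these were 0.111 for H3K4me3 and 0.0833 for H3K27me3 and H3K9me3; the correlation of same-numbered libraries' deviations was at most 0.0737, so the numbers show no pairing. The causes were not tested.

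The share of members marked in BL, ICM and TE moved as follows. For H3K4me3 it was 50.9% in ICM at 200 bp, 73.6%, 68.2% and 77.1% at 1000 bp, 71.0% in ICM with trimmed lists, 73.7%, 62.0% and 70.7% where any base counts, 31.2%, 25.2% and 36.1% where 90% must be covered, and 79.3%, 68.9% and 80.7% without members with H3K9me3. For H3K27me3 it was 82.8% in BL at 200 bp, 82.9% in BL at 1000 bp, 79.7%, 78.7% and 76.6% without the lowest-scoring 25%, 61.4%, 62.3% and 58.8% with trimmed lists, 82.3% in BL and 77.1% in TE with peaks joined, 84.7% in BL and 80.7% in TE where any base counts, 80.9%, 78.8% and 74.3% at 90%, and 74.8%, 72.0% and 68.0% without members with H3K9me3.

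Leaving out 1 library, of the morula or of the groups compared, moved the differences from the comparison stretches before the morula to between -13.9 and -10.1 points for H3K27me3, with the call lost in 6 fits (exact permutation test, adjusted p = 0.0527), and between 0.85 and 1.43 for H3K9me3, with the call lost without H3K4me3 replicate 1 of MO (adjusted p = 0.0703). After the morula they ran from -14.4 to -11.2 for H3K4me3, from -1.23 to 0.53 for H3K27me3, from -47.4 to -43.2 for H3K27ac and from 26.7 to 30.7 for H3K9me3. Where a late library was left out, the sign-flip test over 5 libraries cannot pass the threshold, so those p-values say nothing on stability. Where a morula library was left out, 6 libraries remained: the calls of H3K4me3, H3K27ac and H3K9me3 held (exact permutation test, adjusted p = 0.0402 to 0.0469), and that of H3K27me3 failed in all 4 fits (0.0703 to 0.246), with the sign turned to 0.53 points without H3K27me3 replicate 2. The adjusted p of the early stage difference ran from 0.0254 to 0.0571 for H3K4me3 and from 0.0286 to 0.20 for H3K27ac. The share of members marked by H3K4me3 ran from 55.8% to 73.0% in BL, from 46.6% to 61.8% in ICM and from 57.4% to 74.3% in TE, and by H3K27me3 from 79.8% to 85.4%, 77.1% to 85.02% and 75.1% to 81.4%. Depth is unknown, so a missing peak may be a shallow library.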
